A study of Mus musculus with 8 samples.

Results

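The expression of 9 genes that mark cortical layers or brain regions was examined in the hippocampus of adult mice: *Tbr1*, *Fezf2*, *Foxp2*, *Rorb*, *Cux2*, *Bcl11b*, *Tle4*, *Tshz2* and *Ntng1*. They are a list of named genes, set with earlier results of these data known, out of the 24051 genes of the single nucleus (snRNAseq) matrices and the 46517 genes of the bulk RNAseq files, and all 9 were present in both. The mutants were *Wls* fl/-;*Gfap-Cre* mice and the controls *Wls* fl/+;*Gfap-Cre* mice, both 12 weeks old and labelled male. The Cre transgene, driven by *Gfap* regulatory sequence in neural progenitors, and a floxed *Wls* copy were therefore shared by the genotypes, and control cells that had expressed Cre kept 1 functional *Wls* copy. *Wls* encodes a protein needed for Wnt secretion, and the study asked what its loss in these progenitors does to the hippocampus. Each library was made from both hippocampi of 1 mouse, with 2 mutants and 2 controls in bulk RNAseq and 2 mutants and 2 controls in snRNAseq.

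Pyramidal neurons of the cerebral cortex are arranged in layers that are born in sequence, and a small set of transcription factors that repress each other sets and keeps their identity. Several of these factors are used again outside the cortical layers, in hippocampal pyramidal neurons, dentate granule cells (DGCs), interneurons, striatal neurons or glia. *Tbr1* (T-box factor of early-born, deep-layer neurons), *Fezf2* and *Bcl11b* (zinc finger factors of neurons projecting below the cortex), *Foxp2* (forkhead repressor of deep-layer and striatal neurons) and *Tle4* (Groucho-type corepressor of deep-layer neurons) are deep-layer genes. *Cux2* is a homeodomain factor of upper layers, and *Rorb* is an orphan nuclear receptor of the layer that receives thalamic input. *Tshz2* is a teashirt-family zinc finger gene with marked regional expression in cortex, and *Ntng1* encodes netrin-G1, a membrane-anchored axonal protein whose partner on dendrites is the product of *Lrrc4c*.

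In the GRCm38 annotation (GENCODE M21) all 9 are protein coding and lie on 7 chromosomes. *Tbr1* is at chr2:61802930-61814114 and *Tshz2* at chr2:169633013-170071816, both on the plus strand. *Ntng1* is at chr3:109780040-110144011, *Cux2* at chr5:121856366-122050102 and *Bcl11b* at chr12:107910403-108003602, on the minus strand. *Fezf2* at chr14:12342094-12348189, *Tle4* at chr19:14448150-14598051 and *Rorb* at chr19:18930605-19111196 are on the minus strand too, and *Foxp2* at chr6:14901349-15441977 is on the plus strand. RefSeq promoters (GRCm38.p6) were found for 8 of the 9 genes, as 11 start sites, and none was found for *Foxp2*. The 250 bases before the start are shown for *Tbr1* and *Tshz2*, the genes with the lowest bulk p-value and the largest snRNAseq difference between genotypes. Capitals mark CG dinucleotides.
Tbr1: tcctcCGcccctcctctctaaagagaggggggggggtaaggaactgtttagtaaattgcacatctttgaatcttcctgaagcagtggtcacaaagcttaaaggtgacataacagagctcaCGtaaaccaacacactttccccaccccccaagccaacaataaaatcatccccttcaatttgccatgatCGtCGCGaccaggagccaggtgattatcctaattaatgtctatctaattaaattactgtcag
Tshz2: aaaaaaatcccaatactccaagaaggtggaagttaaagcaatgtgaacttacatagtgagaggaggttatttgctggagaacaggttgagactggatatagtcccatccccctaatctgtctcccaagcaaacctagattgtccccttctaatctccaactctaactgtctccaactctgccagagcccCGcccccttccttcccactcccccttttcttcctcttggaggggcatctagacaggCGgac
The *Tbr1* stretch is chr2:61804203-61804452 and the *Tshz2* stretch chr2:169632259-169632508. They hold 5 and 2 CG dinucleotides, beside a median of 6 over 32851 promoters, whereas the 11 member promoters range from 2 to 40 (the latter at a *Cux2* start). The T-box half-site TCACACC and the ROR half-site AGGTCA, searched on both strands, were in 0 of the 11 member promoters. Over all promoters 3.33% held the former and 14% the latter.

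The bulk libraries held 59786165 and 79576196 expected counts for mutants 1 and 2 and 56002381 and 66684515 for controls 1 and 2. The snRNAseq libraries held 5304 and 10460 mutant nuclei and 6469 and 7192 control nuclei, with 26307081, 76486132, 38980264 and 61559052 UMIs and medians of 4128, 6771.5, 5167 and 7544.5 UMIs per nucleus. Mutant 1 was the shallowest. Pairs of snRNAseq libraries shared between 8 and 21 cell barcodes. *Wls* was lower in the mutants, at 3.67 and 6.86 CPM (counts scaled to library size) against 13.2 and 13.03 in bulk, and at 6.96 and 11.7 against 20.7 and 27.4 in nuclei, in UPM (UMIs scaled to the total in the same way). The sex labels and the data differed in some bulk libraries. *Xist*, which is expressed from the inactive X chromosome of female cells, was at 230.1 CPM in mutant 2 and 518 CPM in control 2, and the Y-linked *Ddx3y* was at 0.352 and 0.343 CPM there. In mutant 1 and control 1 *Xist* was at 1.44 and 1.05 CPM and *Ddx3y* at 54.5 and 58.3 CPM. Bulk differences are therefore also given within the replicate 1 libraries and within the replicate 2 libraries. All 4 nuclei libraries had *Ddx3y* between 31.6 and 53.8 UPM and *Xist* below 4 UPM. Choroid plexus genes also set bulk libraries apart. The summed level of 8 of them, led by *Ttr*, was 725 and 5564 CPM in the mutants and 126 and 66.2 CPM in the controls, and their part in the bulk differences was not tested.

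The authors' names for 21 cell types and clusters were used. The clusters examined were excitatory neurons 7, 8, 10 and 13, the clusters deposited as "excitatory neurons 19" and "inhibtory neurons 15", CA1, CA2 and CA3 pyramidal cells, mossy cells (MC) and granule cells (GC), with 19213 of 29425 nuclei. Levels are UPM of the summed nuclei of a cluster in a sample. UPM are not scaled to gene length, and the reads were aligned to an index of unspliced RNA, so long genes can gain UMIs from introns. Levels of different genes in UPM therefore do not rank their amounts of RNA. The clusters were made from all genes, so differences of level between them are described and not tested. Markers went against the name of cluster 15. *Slc17a7*, the vesicular glutamate transporter of most forebrain excitatory neurons, was at 169 UPM on average there, whereas *Gad1*, *Gad2* and *Slc32a1* of inhibitory neurons were at 6.08, 2.71 and 1.51 UPM, beside 216, 279 and 132 UPM in inhibitory cluster 5. Its leading genes were *Ntng1*, *Cntnap5a* and *Plch1*, and it is called cluster 15 below. The cluster deposited as "excitatory neurons 19" had *Slc17a7* at 32.7 UPM and was led by *Mgp*, *Slc47a1* and *Bnc2*, with *Zic1* at 374 UPM, so that its label was not borne out by this marker and it is called cluster 19. The cluster deposited as "inhibtory neurons 14", cited below for *Foxp2*, was led by *Ptgds*, *Slc6a20a* and *Ranbp3l* and had *Gad1*, *Gad2* and *Slc32a1* at 20.6, 29.7 and 10.9 UPM, so it is called cluster 14.

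**Figure D1:**
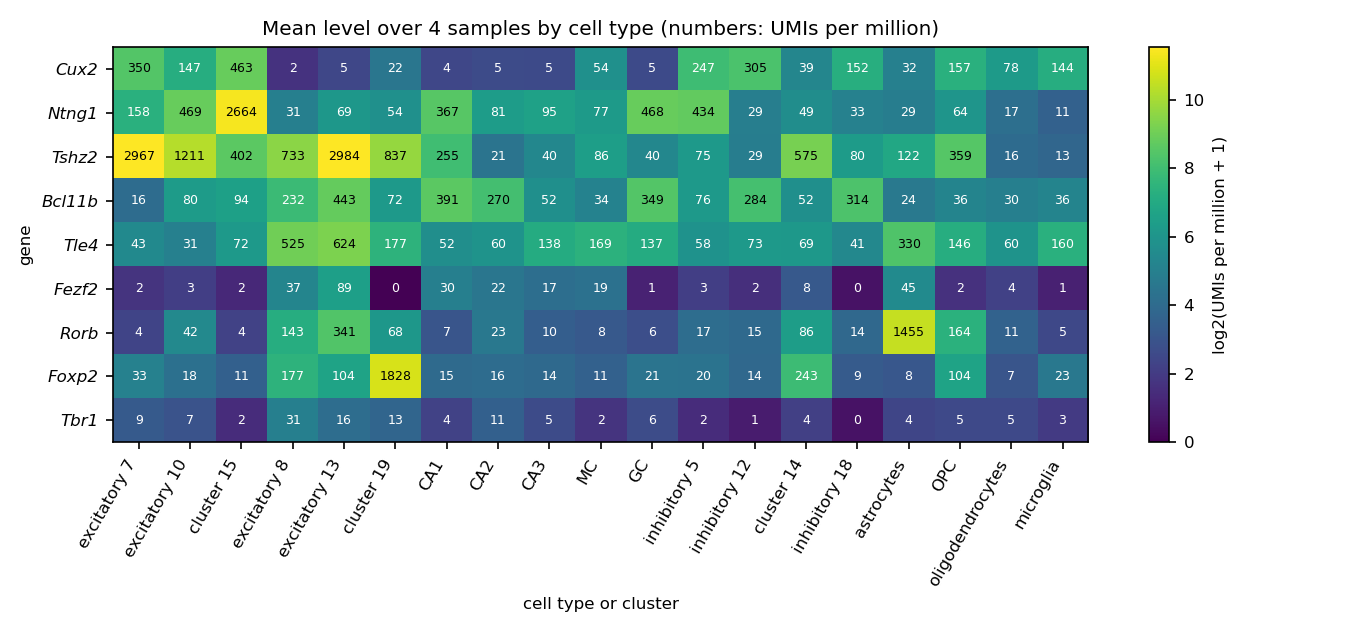
Mean level over 4 snRNAseq samples of the 9 genes (rows) in 19 cell types and clusters with nuclei in every sample (columns), coloured on a log2(UPM + 1) scale and printed in UPM. *Cux2* was high in excitatory 7 and 10 and cluster 15 and near 0 in excitatory 8 and 13, where *Tle4*, *Rorb*, *Fezf2* and *Foxp2* were higher.

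The excitatory clusters outside the CA fields and dentate gyrus fell into combinations of the 9 genes. *Cux2* was present in excitatory 7 and 10 and cluster 15, at mean levels of 350, 147 and 463 UPM, and was at 2.23 and 4.56 UPM in excitatory 8 and 13. *Tle4* went the other way, with 525 and 624 UPM in excitatory 8 and 13 and 43.1, 31.4 and 72.0 UPM in excitatory 7, 10 and cluster 15. *Rorb* (143 and 341 UPM), *Fezf2* (36.5 and 89.3 UPM), *Foxp2* (177 and 104 UPM) and *Bcl11b* (232 and 443 UPM) were all at higher levels in excitatory 8 and 13 than in excitatory 7, where they were at 4.14, 2.37, 32.8 and 15.8 UPM. Outside the excitatory clusters *Cux2* was at 305 UPM in inhibitory 12, 247 in inhibitory 5, 157 in OPC and 152 in inhibitory 18, and the last 2 differed from excitatory 10 by less than its SD over samples. Choroid plexus nuclei were found only in mutant 2 (184 nuclei) and control 1 (9 nuclei). With equal weight for each nucleus they had *Cux2* at 316 and 271 UPM. *Tshz2* cut across this division, at 2967 UPM in excitatory 7 and 2984 UPM in excitatory 13.

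The division held in each sample. *Cux2* in excitatory 7 was at 218 and 442 UPM in mutants 1 and 2 and 324 and 418 UPM in controls 1 and 2, and in excitatory 8 it was at 3.27, 2.98, 1.27 and 1.39 UPM. Every excitatory 7 sample was above every excitatory 8 sample. *Tle4* in excitatory 13 was at 652, 595, 637 and 612 UPM in the same order, and in excitatory 7 at 61.5, 33.4, 38.8 and 38.7 UPM. In single nuclei, each thinned to 1500 UMIs so that depth was equal, a *Cux2* UMI was seen in 24.4% to 42.3% of excitatory 7 nuclei across the 4 samples and in 0% to 0.271% of excitatory 8 nuclei. Oligodendrocytes, with medians of 1727 to 2339 UMIs, gave 6.71% to 13.7% for *Cux2*, above the excitatory 8 share. Without thinning the mean shares were 61.4% in excitatory 7 and 1.07% in excitatory 8. No nucleus had fewer than 1500 UMIs, so none was left out.

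The same nuclei rarely held UMIs of both kinds. Over excitatory 7, 8, 10 and 13 and cluster 15 together, a thinned *Tle4* UMI was found in 27.4% of 1961 nuclei of mutant 1, 24.8% of 1340 of mutant 2, 20.6% of 665 of control 1 and 23.4% of 415 of control 2. Among nuclei with a *Cux2* UMI the share with *Tle4* was 6.96%, 6.43%, 5.00% and 7.23%. Among nuclei with a *Rorb* UMI it was 56.0%, 50.0%, 37.3% and 41.7%. *Tle4* was thus seen less often beside *Cux2* and more often beside *Rorb* in every sample, and since these genes took part in the clustering this is a description.

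*Tshz2* had its highest level in excitatory 13 and 7, whose samples overlapped, at 3191, 3615, 2367 and 2762 UPM in excitatory 13 and 2856, 3650, 2305 and 3055 UPM in excitatory 7. Excitatory 10 followed at a mean of 1211 UPM, then cluster 19 at 837 and excitatory 8 at 733 UPM, which overlapped. A *Tshz2* UMI was found in 94.8% to 97.4% of thinned excitatory 7 nuclei and in 0.862% to 3.24% of oligodendrocytes. CA1 stood at 255 UPM, and CA2, CA3 and GC at 20.7, 40.1 and 40.2 UPM. A long noncoding gene, *Gm26883*, is annotated on the other strand within *Tshz2*, and the 2 had a correlation of r = 0.99 over 19 cell types. *Gm26883* was at 2249 UPM in excitatory 7 and 1881 UPM in excitatory 13. Both library kits keep the strand of the RNA, and the strand setting of the counting was not given in the sources used here, so whether reads of the pair were told apart was not tested.

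*Ntng1* was the leading gene of cluster 15, at 2992, 2538, 2530 and 2598 UPM in mutants 1 and 2 and controls 1 and 2. A UMI was seen in 86.7% to 100% of its thinned nuclei, beside 1.85% to 4.11% of oligodendrocytes. The next levels were 469 UPM in excitatory 10 and 468 UPM in GC, whose samples overlapped, followed by inhibitory 5 at 434 and CA1 at 367 UPM. The partner gene *Lrrc4c* was at 4718 UPM in excitatory 7 and 3311 UPM in excitatory 13, and at 1366 UPM in cluster 15. Cluster 15 held 143 of 5304 nuclei in mutant 1 (2.70%, exact 95% interval 2.28% to 3.17%), 102 of 10460 in mutant 2 (0.975%, 0.796% to 1.18%), 15 of 6469 in control 1 (0.232%, 0.130% to 0.382%) and 1 of 7192 in control 2 (0.0139%, 0.000352% to 0.0774%). Both mutant shares were above both control shares beyond these intervals, which cover counting error only. With 1 nucleus in control 2, its genes were not tested between genotypes, and that library's levels in cluster 15 are those of a single nucleus.

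*Bcl11b* was present in several kinds of hippocampal neuron. It was highest in excitatory 13 (443 UPM), CA1 (391 UPM) and GC (349 UPM), followed by inhibitory clusters 18 and 12 at 314 and 284 UPM and CA2 at 270 UPM. CA3 and MC were at 52.1 and 33.8 UPM. In GC the 4 samples were at 353, 343, 348 and 354 UPM, a narrow spread, although GC nuclei numbered 90 and 463 in the mutants and 2336 and 2007 in the controls. *Tle4* was also found in astrocytes (330.5 UPM), MC (169 UPM), CA3 (138 UPM) and GC (137 UPM), at lower levels than in excitatory 8 and 13.

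*Rorb* had its highest level in astrocytes, which were at 1364 and 1342 UPM in the mutants and 1622 and 1492 UPM in the controls, with a UMI in 80.2% to 82.9% of thinned nuclei, and excitatory 13 followed at 341 UPM. *Foxp2* was highest in cluster 19, at 1725, 1637, 2534 and 1417 UPM, from 19, 64, 33 and 19 nuclei. Cluster 14 came next at 243 UPM and excitatory 8 at 177 UPM, and its relative *Foxp1* was at 1586 UPM in cluster 19. *Fezf2* was highest in excitatory 13, at 86.6, 62.9, 121 and 86.8 UPM, then in astrocytes at a mean of 44.9 UPM, excitatory 8 at 36.5 UPM and CA1 at 30.4 UPM, and in cluster 19 no UMI was found in any sample. *Tbr1* was low in UPM throughout, with its highest level of 31.0 UPM in excitatory 8 and a UMI in 1.10% to 6.17% of thinned nuclei there, beside 0% to 2.16% of oligodendrocytes. In bulk RNA, scaled to length as TPM, its mean was 25.9, beside 9.41 for *Tshz2*.

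**Figure D2:**
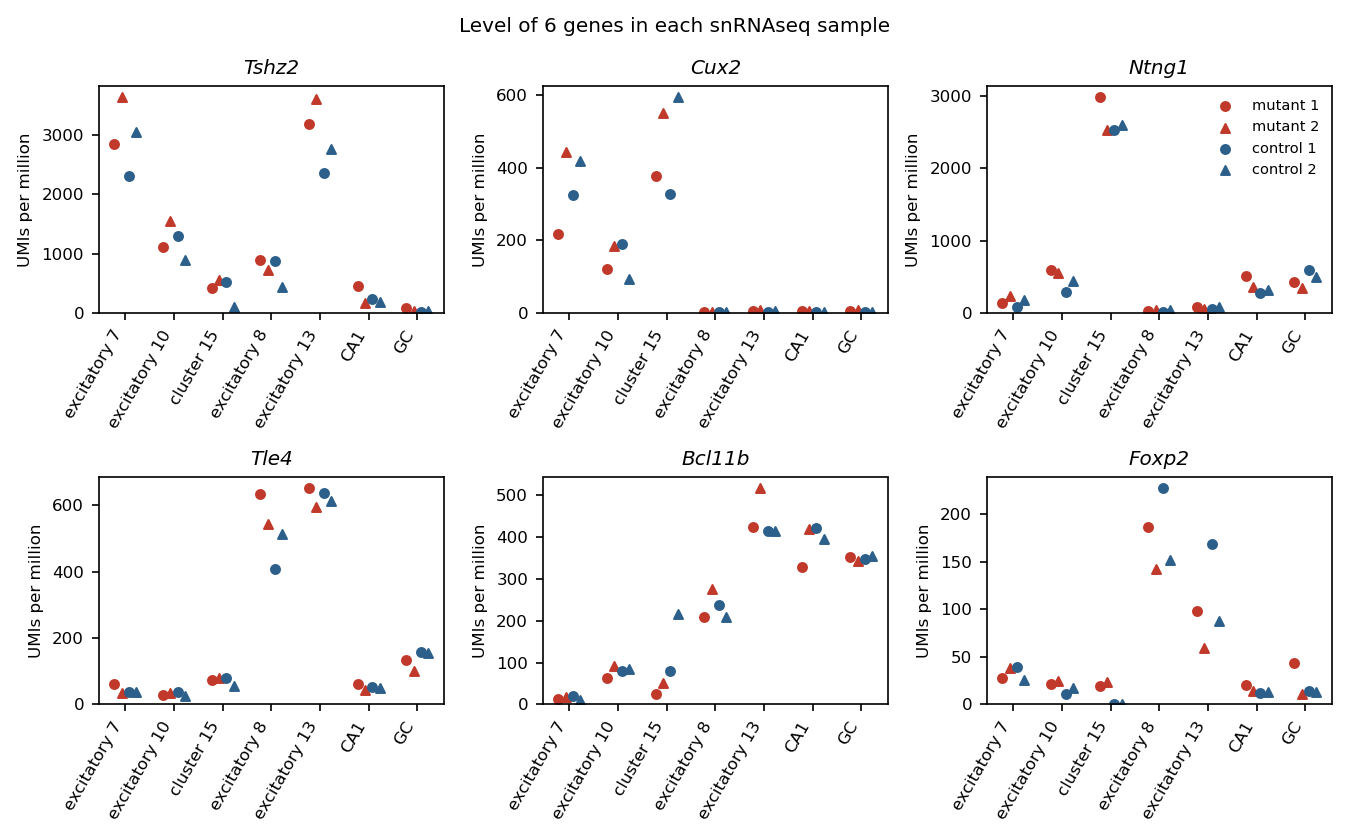
Level in UPM (vertical axes, from 0) of 6 genes in 7 clusters, each point 1 snRNAseq sample, with circles for replicate 1 and triangles for replicate 2 of mutants (red) and controls (blue). *Ntng1* was at 2530 to 2992 UPM in cluster 15, and *Bcl11b* at 343 to 354 UPM in GC.

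For each gene the 3 genes with the most similar profile over the 19 types were taken by Pearson's r on log2(UPM + 1) among 12317 genes. The points share libraries and depth. Beside *Gm26883*, *Tshz2* was followed by *Ldb2* (r = 0.88), which was at 977 UPM in excitatory 7 and 624 UPM in excitatory 13. *Foxp2* was closest to *Sulf1* (0.89), *Rorb* to *Rgs20* (0.87), *Ntng1* to *D430019H16Rik* (0.83), *Bcl11b* to *Lmo3* (0.80) and *Cux2* to *Rnf144b* (0.80). *Fezf2*, *Tle4* and *Tbr1* had weaker neighbours in *Gm11290* (0.77), *Zfpm2* (0.74) and *Klf10* (0.73). Between the 9 genes themselves r ran from -0.64, for *Cux2* with both *Tbr1* and *Fezf2*, to 0.60 for *Rorb* with *Tle4*.

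In bulk RNA the 9 genes were tested for a genotype difference by the quasi-likelihood method of edgeR, in a fit over 20687 genes. A call needed a fold change (FC) above 3 and a false discovery rate (FDR) below 0.05. None of the 9 was called, beside 0.218% of all genes, and DESeq2 called none, beside 0.819%. By edgeR, *Tbr1* alone had an FDR below 0.05 without the fold threshold, beside 1.01% of all genes that were lower at that FDR and 0.198% that were higher. Its level, per length, was 21.7 and 19.6 TPM (transcripts scaled to length and library size) in the mutants and 32.7 and 29.7 TPM in the controls. Both mutants were below both controls. On the log2 scale of the fit *Tbr1* was lower by a change of -0.52 ± 0.06 (SE, adjusted p = 0.041), and it was -0.54 within replicate 1 and -0.50 within replicate 2. The adjusted p of *Tbr1* ranged from 3.3e-06 to 0.36 over the alternatives, and it was 0.27 and 0.30 without control 1 or control 2. With the replicate number as a block, which in bulk also separates the libraries by *Xist* and *Ddx3y*, it was 0.061 and no member had an FDR below 0.05. With every library in the fit, other settings put further genes below that FDR, all with lower levels in the mutants. They were *Tle4* by DESeq2 (adjusted p = 0.015), and *Tle4* and *Tshz2* by edgeR without the filter on low counts (0.0069 and 0.024). With the fold threshold DESeq2 called 0.819% of all genes and edgeR without the filter 0.986%. The shares of all genes at the FDR alone are not given for these settings. Fits with a library left out rest on a single mouse in a genotype and are not part of this list. Without mutant 1 the log2 FCs of *Tle4* and *Ntng1* were -0.43 and -0.56.

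Of the other 8 genes, *Tle4*, *Cux2* and *Fezf2* had an unadjusted p below 0.05, making 4 of 9 beside 18.8% of all genes. *Tle4* was at 19.9 and 18.9 TPM in mutants and 27.6 and 25.0 TPM in controls (log2 FC -0.35 ± 0.08, adjusted p = 0.12 by edgeR). *Cux2* was at 19.5 and 21.1 TPM against 16.6 and 16.2 TPM (0.32 ± 0.10, adjusted p = 0.19 by edgeR), and *Fezf2* at 25.6 and 23.35 TPM against 22.0 and 20.1 TPM (0.31 ± 0.11, adjusted p = 0.23 by edgeR). With *Bcl11b*, at 43.7 and 53.2 TPM against 57.1 and 68.0 TPM, 5 of the 9 genes had no overlap of the genotypes in CPM (with TMM scaling), beside 51.1% of all genes. In TPM, the scale printed here, *Tshz2* and *Ntng1* did not overlap either, making 7 of 9 beside 49.1% of all genes. *Tshz2* was at 8.89 and 5.03 TPM in mutants and 14.45 and 9.27 TPM in controls, with mutant 1 below control 2 on this scale and level with it in CPM. Its log2 FC was -0.73 ± 0.33 (adjusted p = 0.32 by edgeR), with -0.71 within replicate 1 and -0.76 within replicate 2, and it ran from -0.33 without control 1 to -1.15 without mutant 1. *Ntng1* was at 18.0 and 14.02 TPM against 23.1 and 18.9 TPM, with overlap in CPM. *Rorb* (44.2 and 68.4 against 53.45 and 65.2 TPM) and *Foxp2* (6.23 and 5.29 against 6.03 and 6.51 TPM) overlapped, with opposite signs in the 2 replicate numbers. By TPM *Rorb* and *Bcl11b* were the highest of the 9, at means of 57.8 and 55.5, with overlapping libraries, and *Foxp2* the lowest at 6.02.

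**Figure D3:**
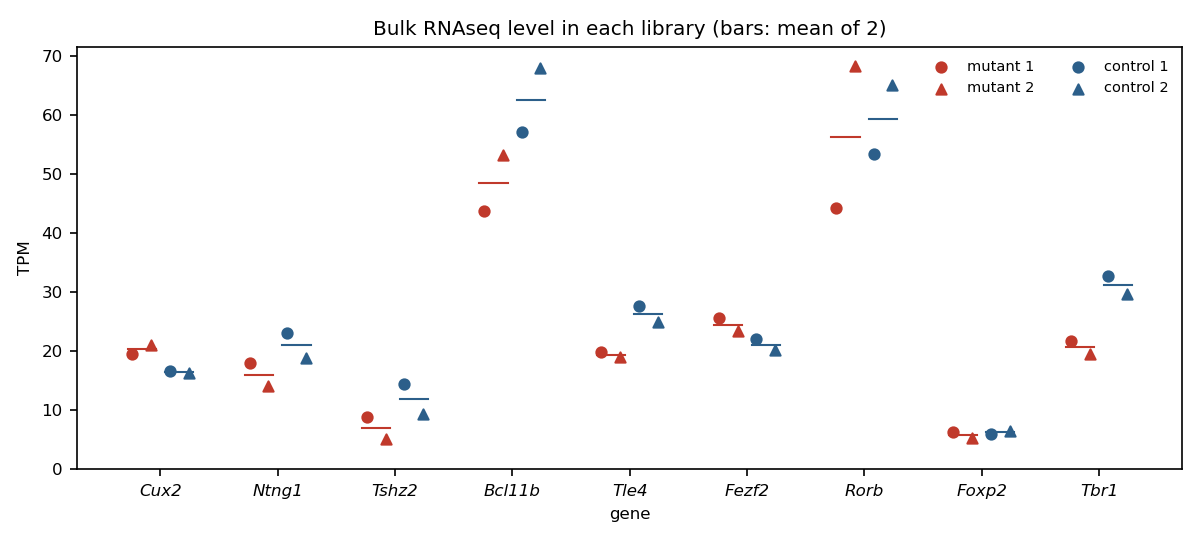
TPM (vertical axis, from 0) of the 9 genes in each of 4 bulk libraries, with circles for replicate 1 and triangles for replicate 2 and a bar at the mean of 2 mutants (red) or controls (blue). *Tbr1* and *Tle4* were lower in both mutants than in both controls, and *Cux2* and *Fezf2* were higher by smaller steps.

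In bulk RNA, fewer cells of a type and less RNA per cell cannot be told apart. The nuclei give the share of each gene's UMIs that came from each type. GC made up 36.1% and 27.9% of control nuclei and 1.70% and 4.43% of mutant nuclei. They held 11373853 of the 38980264 UMIs of control 1 and 16265045 of the 61559052 UMIs of control 2. A gene at the same level in every type would draw that part of its UMIs from GC, so the shares below are to be read beside it. GC gave 33.8% and 34.7% of *Tbr1* UMIs in the controls and 0.529% and 4.45% in the mutants. The level of *Tbr1* in control GC was low, at 8.09 and 6.58 UPM. With equal weight for each nucleus its mean was 5.44 UPM in GC, beside 5.05 in oligodendrocytes and 4.16 in astrocytes. Free RNA was not tested as a source of these UMIs. The GC share of the controls was likewise 36.7% and 32.8% for *Tle4*, 38.9% and 37.9% for *Bcl11b*, and 55.4% and 45.7% for *Ntng1*, the genes that were at lower bulk levels in the mutants together with *Tshz2*. For *Cux2* and *Fezf2*, at higher bulk levels in the mutants, it was 2.16% and 2.03%, and 1.81% and 3.36%. *Cux2* was also found in choroid plexus nuclei, and choroid plexus genes were higher in the bulk mutants. Their part in the *Cux2* difference was not tested. *Tshz2* drew 1.67% and 3.24% from GC. Astrocytes gave 70.8% and 73.1% of *Rorb* UMIs in the controls and 34.4% and 61.6% in the mutants, and excitatory 7, 8, 10 and 13 gave 49.3% and 18.0% in the mutants. What part the number of granule cells had in the bulk differences was not tested.

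**Figure D4:**
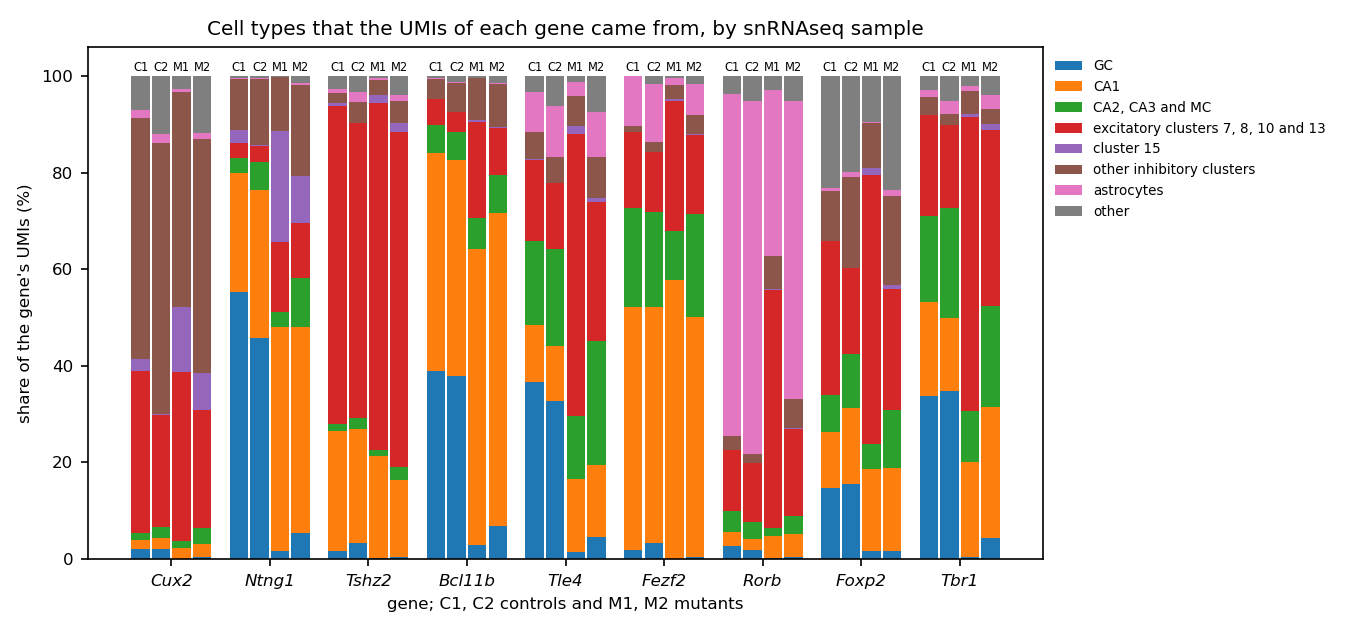
Share of each gene's UMIs (vertical axis, percent) by the group of cell types they came from, in controls (C1, C2) and mutants (M1, M2). The GC part, 33.8% and 34.7% of *Tbr1* in the controls, shrank to 0.529% and 4.45% in the mutants, and astrocytes gave 70.8% and 73.1% of *Rorb* in the controls. *Tbr1* was at only 8.09 and 6.58 UPM in GC of controls 1 and 2.

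Genes fixed as lists around the 9 were counted in bulk at an FDR below 0.05 with no fold threshold, a level at which 1.01% of all genes were lower and 0.198% higher. Of 12 other upper-layer genes, *Rasgrf2* (a guanine nucleotide exchange factor) was lower (log2 FC -0.88 ± 0.09, adjusted p = 0.026 by edgeR), and none of 16 deep-layer genes passed in either direction. Their median log2 FCs were -0.14 and 0.16, beside 0.01 over all genes. Of 10 pallial neuron factors, *Mef2c*, *Bhlhe22* and *Neurod1* were lower, with log2 FCs of -0.93, -0.70 and -0.85. *Neurod1* and *Bhlhe22* encode basic helix-loop-helix factors, and *Mef2c* a MADS-box factor. Of 14 paralogs and partners of the 9 genes, *Tle3*, a relative of *Tle4*, was higher, at 54.8 and 59.6 CPM against 36.8 and 39.8 CPM. The 3 granule cell genes *Prox1*, *C1ql2* and *Dsp* were lower and passed the fold threshold too (log2 FCs of -2.73, -2.48 and -3.19). *Nrn1* was the only 1 of 4 glutamatergic genes that passed, with a log2 FC of -0.43. None passed among 10 thalamus, 5 subiculum, 9 CA field, 9 striatal projection neuron, 8 inhibitory neuron, 6 Cajal-Retzius and 8 choroid plexus genes tested, the last with a median log2 FC of 4.62 and mutants 1 and 2 far apart.

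The 3 most abundant genes of each of the other lists, by mean TPM over the 4 libraries, are given with their bulk log2 FCs. They were *Lhx2*, *Lamp5* and *Mdga1* for upper layers (log2 FCs of -0.21, -0.07 and 0.26) and *Crym*, *Pcp4* and *Hs3st4* for deep layers (0.29, -0.60 and 0.13). For pallial factors they were *Zbtb18*, *Neurod6* and *Neurod2* (-0.11, 0.32 and -0.19), and for paralogs and partners *Bcl11a*, *Lrrc4* and *Ntng2* (0.20, -0.24 and -0.54). For the CA fields they were *Wfs1*, *Cpne4* and *Mpped1* (0.44, -0.07 and 0.55), for the thalamus *Calb2*, *Prkcd* and *Zic1* (-0.29, -0.84 and -0.50) and for the subiculum *Fn1*, *Rxfp1* and *Nts* (-0.04, -0.30 and -0.51). Inhibitory neurons gave *Gad1*, *Gad2* and *Slc32a1* (0.20, 0.27 and 0.29), and striatal projection neurons *Ppp1r1b*, *Pde10a* and *Penk* (0.93, -0.25 and -0.29). Cajal-Retzius cells gave *Reln*, *Ndnf* and *Trp73* (-0.03, -0.39 and 0.24), and glutamatergic genes *Camk2a*, *Slc17a7* and *Nrn1* (-0.04, 0.07 and -0.43). Choroid plexus genes were *Ttr*, *Kl* and *Folr1* (5.59, 2.58 and 4.88). Apart from *Nrn1*, none of these had an FDR below 0.05.

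With all nuclei of a sample summed, none of the 9 genes was called at FC above 2 and FDR below 0.05 by edgeR, beside 0% of 20575 genes. DESeq2 called *Tshz2*, beside 1.8% of all genes, and so did edgeR with the replicate number as a block, beside 2.15%. An unadjusted p below 0.05 was found for *Tshz2* and *Cux2*, beside 14.8% of all genes, and the genotypes did not overlap for 4 of 9, beside 48.8%. *Tshz2* was at 743 and 344 UPM in the mutants and 266 and 208 UPM in the controls, a log2 FC of 1.18 ± 0.39 (adjusted p = 0.27 by edgeR), with both mutants above both controls and mutant 1 well above mutant 2. Without mutant 1 the log2 FC was 0.47 (adjusted p = 0.57 by edgeR), and the adjusted p ranged from 0.020 to 0.64 over the alternatives. This direction was opposite to that of bulk RNA, which came from other mice. Bulk RNA was of whole tissue, whereas the nuclei reads were aligned to an index of unspliced RNA. Bulk mutant 2 and control 2 also differed from the nuclei libraries in *Xist* and *Ddx3y*. Which of these differences bears on the direction was not tested. *Cux2* was at 83.3 and 79.2 UPM against 50.0 and 44.8 UPM (0.75 ± 0.15, adjusted p = 0.18 by edgeR). *Foxp2*, at 40.8 and 29.4 against 28.9 and 22.2 UPM, and *Bcl11b*, at 187 and 224 against 262 and 247 UPM, also did not overlap, with the smallest gap for *Foxp2*.

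The mix of cell types differed between these libraries. Excitatory 7, 8, 10 and 13 together held 34.3% and 11.8% of mutant nuclei and 10.0% and 5.76% of control nuclei, and gave 71.8%, 69.4%, 65.7% and 61.0% of *Tshz2* UMIs. With each type weighted by its mean share in the controls, the 4 samples were at 365, 294, 235 and 242 UPM for *Tshz2*, a log2 ratio of 0.46, and at 46.2, 55.7, 48.6 and 47.9 UPM for *Cux2*, a log2 ratio of 0.08. *Tbr1* was at 4.50, 4.81, 6.89 and 5.18 UPM on this scale, with the mutants below the controls (log2 ratio -0.37). *Bcl11b* moved to a log2 ratio of -0.06. With excitatory 7, 8, 10 and 13 and cluster 15 left out, the log2 ratio of *Tshz2* was 1.10, beside 1.20 over all nuclei on the same scale, with samples at 284, 114, 99.2 and 86.2 UPM. Without mutant 1 these log2 ratios of *Tshz2* fell to 0.30 and 0.54, and the weighted one to 0.30. That of *Cux2* was 0.78, as over all nuclei, with samples at 62.0, 61.7, 35.6 and 36.4 UPM. *Tle4* and *Tbr1* moved further, to -0.50 and -0.47 with these clusters left out, from -0.05 and 0.02 over all nuclei. Leaving out a library moved the weighted log2 ratio of *Cux2* between -0.06 and 0.21 and that of *Tbr1* between -0.57 and -0.16. These values carry no test.

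Within single clusters the genotypes were compared for 10 of the 11 clusters, each with at least 10 nuclei in every sample. After the filter on low counts, 74 of 90 pairs of gene and cluster remained. None was called at FC above 2 and FDR below 0.05 by edgeR, beside 0% of genes in CA1, CA3 and excitatory 7, 8 and 13 and cluster 19, 0.00992% in CA2, 0.0482% in excitatory 10, 0.59% in MC and 1.47% in GC. DESeq2 called 1, *Tshz2* in GC, beside 0.217% of all gene tests in the 10 clusters. With the replicate number as a block *Tshz2*, *Cux2* and *Bcl11b* in MC and *Tshz2* in GC were called, beside 1.43%. Without the filter on low counts 4 pairs were called, *Tshz2* in CA3, MC and GC and *Cux2* in MC, beside 0.656% of all gene tests. Leaving out control 2 gave 8 calls, beside 1.96% of all gene tests. Leaving out control 1 or mutant 2 gave 1 each (*Tshz2* in MC and in CA3), beside 0.677% and 0.133%. An unadjusted p below 0.05 was found in 15 of 74 pairs, beside 10.1% of gene tests in the 10 clusters, with 12 higher and 3 lower in the mutants. The higher pairs included *Tshz2* in CA2, CA3, MC, GC and excitatory 13 and *Cux2* in CA1, MC and GC. They came from the same libraries and are not separate observations. The split by direction over all gene tests is not given. The lowest adjusted p was 0.058, for *Cux2* in MC.

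*Tshz2* had a positive log2 FC in all 10 clusters with every library in the fit, and the sign turned in 4 of them when a library was left out. It was -0.40 in CA1 without mutant 1, -0.03 in CA2 without mutant 2, and -0.10 in excitatory 8 and -0.05 in cluster 19 without control 2. In excitatory 13 and 7, where it was most abundant, the values were 0.44 ± 0.16 and 0.33 ± 0.21, and in excitatory 13 both mutants were above both controls. In GC it was at 86.9 and 33.0 UPM in the mutants and 15.2 and 25.5 UPM in the controls (1.23 ± 0.41, adjusted p = 0.18 by edgeR), and in CA3 at 69.0 and 39.4 against 23.6 and 28.3 UPM (1.05 ± 0.28, adjusted p = 0.22 by edgeR). In MC it was at 188 and 92.2 against 58.4 and 7.23 UPM (2.07 ± 0.56, adjusted p = 0.14 by edgeR), from 35, 86, 24 and 4 UMIs. Over the alternatives the log2 FC in MC ran from 1.09 without control 2 to 4.09 without control 1 (adjusted p from 8.0e-09 to 1.0). In GC it ran from 0.24 to 2.04 (adjusted p from 3.8e-05 to 0.83), the lowest without the deepest 5% of nuclei and the highest without mutant 2. The range of the log2 FC in CA3 was 0.59 to 1.46. In CA1, CA3, MC and GC mutant 1, the library with the most *Tshz2* over all nuclei, had the highest level. Oligodendrocytes were at 21.5 and 21.9 UPM in the mutants and 9.0 and 9.8 UPM in the controls, from 3, 49, 4 and 25 UMIs. Free RNA of the library was not tested as a source of such low levels. *Gm26883*, on the other strand, had log2 FCs of 1.28 ± 0.30 over all nuclei, 2.83 ± 0.52 in MC (adjusted p = 0.027 by edgeR) and 0.08 ± 0.53 in bulk.

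*Cux2* had log2 FCs of -0.12 ± 0.33 in excitatory 7 and 0.15 ± 0.33 in excitatory 10, where it was abundant, and these ran from -0.72 to 0.30 and from -0.27 to 0.78 over the alternatives. Its larger values were in types with low levels. In MC it was at 91.1 and 79.4 UPM against 14.6 and 32.5 UPM (1.77 ± 0.39), from 17, 74, 6 and 18 UMIs and 27, 89, 38 and 32 nuclei. In CA1 and GC, where *Cux2* was below 10 UPM in every sample, they were 0.77 ± 0.27 and 1.05 ± 0.39.

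Granule cells differ in expression along the length of the dentate gyrus, and GC nuclei were not matched for position, so genotype differences in GC cannot be told apart from a difference in which granule cells were sampled. *Ntng1* had its lower level in mutant GC, at 427 and 347 UPM against 592 and 504 UPM (-0.51 ± 0.16, adjusted p = 0.17 by edgeR), without overlap. In CA1 the mutants were at 517 and 363 UPM and the controls at 271 and 318 UPM (0.56 ± 0.20, adjusted p = 0.44 by edgeR), and in excitatory 10 at 589 and 549 against 288 and 448 UPM (0.68 ± 0.25, adjusted p = 0.47 by edgeR). Over the alternatives the log2 FC of *Ntng1* ran from 0.28 to 0.80 in CA1 and from 0.40 to 1.01 in excitatory 10. *Tle4* was at 135 and 102 UPM in mutant GC and 157 and 155 UPM in control GC (-0.45 ± 0.18, adjusted p = 0.27 by edgeR). *Bcl11b* in GC had a log2 FC of -0.01 ± 0.15 and in CA1 of -0.14 ± 0.18. *Foxp2* in excitatory 13 was at 98.3 and 59.6 against 169 and 87.8 UPM (-0.66 ± 0.31), with overlap. *Fezf2* had a negative log2 FC in all 7 clusters where it was tested, from -0.04 in CA1 to -0.91 in MC, and none had an unadjusted p below 0.05. Under alternatives *Fezf2* turned positive in 4 of them, reaching 0.37 in CA1 without mutant 2 and, without control 1, 0.36 in excitatory 8, 0.04 in CA3 and 0.0054 in CA2. In excitatory 7 and 10, where it did not pass the filter, other settings gave 0.86 to 0.90 and 0.92. *Tbr1* was negative in 5 of 7, with -0.66 ± 0.41 in GC.

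**Figure D5:**
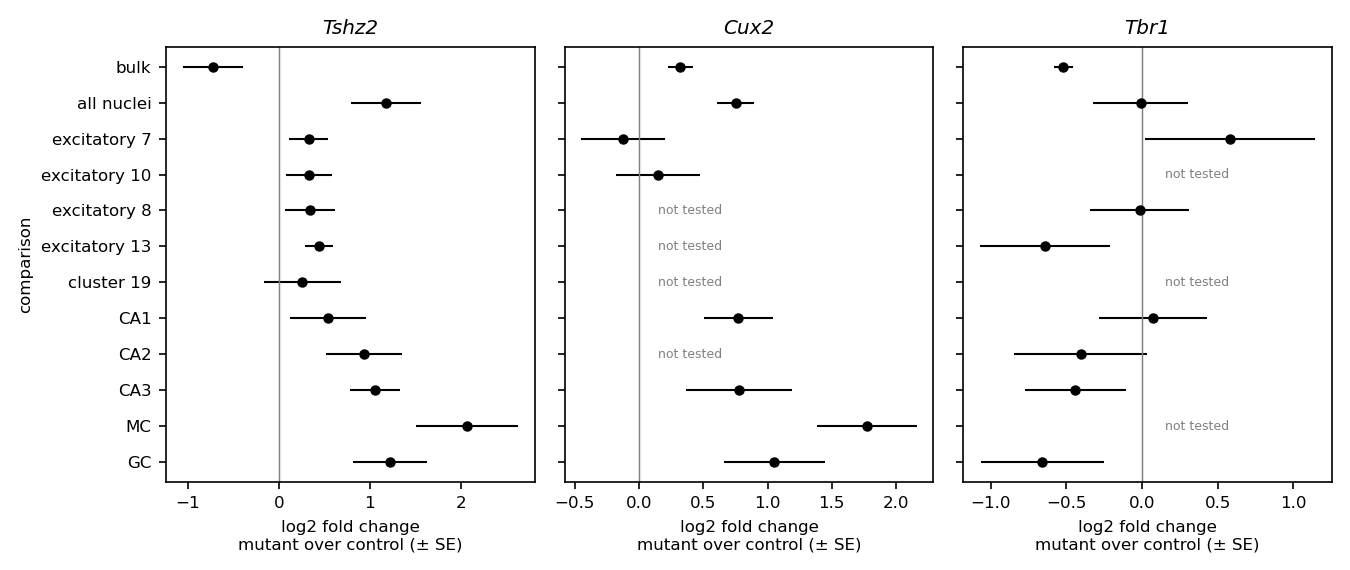
Log2 fold change of mutants over controls (horizontal axis, bars ± SE) of *Tshz2*, *Cux2* and *Tbr1* in bulk RNA, all nuclei and 10 clusters. *Tshz2* was at -0.73 in bulk and above 0 in all nuclei and in each cluster, a sign that turned in CA1, CA2, excitatory 8 and cluster 19 when a library was left out, and *Cux2* was at -0.12 and 0.15 in excitatory 7 and 10.

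Of 590 tests of genes listed around the 9 in the 10 clusters, 8 were called (1.36%), beside 0.247% of all gene tests there. They were 5 of 79 in GC (beside 1.47% of all genes), 1 of 38 in MC (0.59%), 1 of 61 in excitatory 10 (0.0482%) and 1 of 53 in CA2 (0.00992%). The lists were chosen with results known, and nothing is read from these shares. In GC *Otof* (upper-layer list) and *Synpo2* (thalamus list) were higher, with log2 FCs of 1.72 and 1.89, and *Pcp4*, *Bhlhe22* and *C1ql2* lower, with -1.41, -1.24 and -1.57. The lower genes had negative log2 FCs in every other cluster where they were tested, with no call there. *Pcp4* ran from -0.41 in CA2 to -1.57 in excitatory 10, and *Bhlhe22* from -0.28 in CA3 to -0.63 in CA2. *C1ql2* was at -1.07 in CA1 and -1.72 in CA3, at levels up to 4.33 UPM. *C1ql2*, which encodes a secreted protein of mossy fibre synapses, was at 7.24 and 14.6 UPM in mutant GC and 41.1 and 38.8 UPM in control GC. *Etv1*, an ETS factor of the deep-layer list, was higher in MC (2.80), *Erbb4*, the neuregulin receptor of the inhibitory list, in CA2 (2.45), and *Hs3st4*, a heparan sulphate sulphotransferase of the deep-layer list, in excitatory 10 (1.94). *Erbb4* was also positive, without a call, in every other cluster where it was tested, from 0.36 in CA3 to 1.54 in excitatory 13. *Hs3st4* was at 133 and 162 UPM in mutant excitatory 10 and 36.4 and 43.9 UPM in the controls, beside 3092 and 3957 UPM on average in excitatory 8 and 13.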

How the data were processed

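The 9 genes and all gene lists were chosen with earlier results of these data known. Per the labels, the authors aligned bulk reads with Bowtie2 2.2.9 and estimated expected counts and TPM with RSEM 1.3.0, and the deposited bulk matrix holds a normalised signal. The deposited snRNAseq counts are UMIs per gene and nucleus from Cell Ranger 3.1.0 (mm10), with the authors' cluster names. The paper gives the index for these reads as one of pre-mRNA, which holds introns. Expected counts were rounded and UMIs were summed per sample and cluster. Genotypes were compared with edgeR 4.0.16 (quasi-likelihood, TMM, filterByExpr, Benjamini-Hochberg over all genes), and DESeq2 1.42.0 and limma 3.58.1 (log2(signal + 1)) were alternatives. By rule the named genes were the 9 members, their 3 nearest genes by profile among genes at 20 UPM or more, of each list those called and the 3 most abundant, and *Wls*, *Xist* and *Ddx3y*. The nearest genes are given in part. Leading and marker genes of clusters, *Lrrc4c* and *Foxp1*, and list genes past the FDR alone were named after their values were seen. Nuclei were thinned to 1500 UMIs for shares. Doublets were not called again. Columns of the authors' own tests were not used. The tests were checked on simulated data. For 2 mice against 2, the smallest two-sided p an exact permutation could give is 0.33, so none was run.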

Additional observations from a re-analysis of the deposited data

Results flagged for a closer look

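Some genotype differences had opposite signs in different clusters with no overlap of mutant and control samples in either, and the difference between the clusters was not tested. Such separation is common, since 27 of 74 member tests in clusters showed it, beside 41.7% of all gene tests there, so these pairs are not set apart from other genes. *Rorb* had log2 FCs of 0.46 in CA1 and -0.45 in CA3. *Bcl11b* had 1.58 in MC, from 14, 29, 6 and 8 UMIs, and -0.15 in CA3. Over the alternatives *Bcl11b* in MC ran from 1.11 to 2.37. *Rorb* ran from 0.13 to 0.91 in CA1 and from -0.83 to -0.28 in CA3. *Tle4* had 0.40 in excitatory 8 and -0.45 in GC. *Ntng1* had 0.68 in excitatory 10 and -0.51 in GC.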

How the results depend on the processing

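Every alternative called none of the 9 genes in bulk except the removal of the fold threshold, which called 1 (*Tbr1*). Over the 10 clusters none was called by edgeR, 1 by DESeq2, 4 without the filter on low counts, 4 with the replicate block (*Tshz2*, *Cux2* and *Bcl11b* in MC, *Tshz2* in GC) and 0 to 8 when a library was left out, the 8 without control 2. Over all nuclei DESeq2 and the replicate block called 1 (*Tshz2*). Among all genes the block called 1.43% of gene tests in the 10 clusters and 2.15% of genes over all nuclei. DESeq2 called 0.217% and 1.8%. Calls among all genes moved from 45 in bulk to 149 (DESeq2), 313 (no filter), 250 (no fold threshold), 26 (block), 0 (limma on the authors' normalised matrix, with another scaling and 26913 genes, or without either control) and 395 (without mutant 1), from 0 over all nuclei to 291 (DESeq2), 443 (block) and 17 (without mutant 2), and from 269 in the clusters to 1372 (no filter), 1554 (block) and 145 to 2212 (a library left out). Labels give the replicates numbers but no shared source, and in bulk the numbers also separate the libraries by *Xist* and *Ddx3y*. Deviations of same-numbered samples had a correlation of 0.06 in bulk and 0.52 over all nuclei. In bulk the block moved the adjusted p of *Tbr1* to 0.061, and *Rorb* to a log2 FC of -0.018. *Rorb* in bulk was also at -0.00015 (DESeq2), -0.0215 (limma on that matrix) and -0.16 (within replicate 1). Leaving out a library gave -0.31 to 0.25 for *Rorb* and -0.22 to 0.23 for *Foxp2* in bulk, with -0.29 for *Foxp2* within replicate 2, and over all nuclei -0.33 to 0.28 for *Tbr1*, -0.30 to 0.48 for *Fezf2*, -0.35 to 0.0317 for *Rorb*, -0.39 to 0.18 for *Tle4* and -0.11 to 0.36 for *Ntng1*, and -0.0275 to 1.27 for *Tshz2* in CA2. In single clusters the sign also turned when a library was left out, with log2 FCs over the 4 choices as follows. *Tbr1* ran from -0.34 to 0.54 in CA1, -0.49 to 1.11 in excitatory 7, -0.34 to 0.34 in excitatory 8. *Fezf2* ran from -0.56 to 0.37 in CA1, -1.46 to 0.00544 in CA2, -0.41 to 0.0447 in CA3, -0.51 to 0.36 in excitatory 8. *Foxp2* ran from -0.30 to 1.62 in GC, -0.45 to 0.24 in cluster 19, -0.25 to 0.39 in excitatory 7, -0.45 to 0.17 in excitatory 8. *Rorb* ran from -0.14 to 0.35 in GC, -0.0301 to 0.67 in excitatory 10, -0.24 to 1.21 in excitatory 8. *Cux2* ran from -0.16 to 1.12 in CA3, -0.27 to 0.78 in excitatory 10, -0.72 to 0.30 in excitatory 7. *Bcl11b* ran from -0.33 to 0.0164 in CA1, -0.0361 to 0.19 in CA2, -0.0396 to 0.0409 in GC, -0.34 to 0.24 in excitatory 10, -0.31 to 0.74 in excitatory 7, -0.0262 to 0.34 in excitatory 8. *Tle4* ran from -0.28 to 0.23 in CA1, -0.53 to 0.11 in CA2, -0.25 to 0.10 in CA3, -0.24 to 0.0943 in MC, -0.17 to 0.31 in excitatory 10, -0.0493 to 0.10 in excitatory 13, -0.12 to 1.40 in cluster 19, -0.17 to 0.71 in excitatory 7. *Ntng1* ran from -0.11 to 0.31 in MC, -0.39 to 0.18 in excitatory 13, -0.24 to 1.299 in excitatory 8. *Tshz2* ran from -0.40 to 1.11 in CA1, -0.0466 to 0.70 in cluster 19, -0.10 to 0.96 in excitatory 8. Without the filter on low counts the sign turned for *Bcl11b* in excitatory 10 (0.0162), *Tbr1* in excitatory 8 (0.0198). Without the deepest 5% of nuclei the sign turned for *Bcl11b* in GC (0.0467), *Bcl11b* in excitatory 10 (0.23), *Bcl11b* in excitatory 7 (-0.0719), *Fezf2* in CA1 (0.022), *Ntng1* in MC (-0.077), *Rorb* in GC (-0.10). With types weighted as in the controls *Fezf2* was at -0.20, and without clusters 7, 8, 10, 13 and 15 *Ntng1* was at -0.0211, and these settings and the values within a replicate number were chosen after seeing the data. The highest type was kept for 8 of 9 genes with equal weight for each nucleus and for 9 of 9 without thinning. Of 27 nearest genes, 10 were shared with Spearman's rho and 17 with a pseudocount of 10. The cause of these changes was not tested. *Tbr1* had at most 107 UMIs in any cluster of a sample.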
